A study of Caenorhabditis elegans with 21 samples.

Results

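RNA of early embryos of Caenorhabditis elegans that carried mutations in both nrde-3 and set-25 was compared with RNA of embryos that carried the nrde-3 mutation alone. Both genotypes hold the allele nrde-3(tm1116) on chromosome X, so the comparison asks what the added allele set-25(n5021), on chromosome III, changed in embryos that already carried the nrde-3 mutation. The comparison was between 6 of 21 libraries of total RNA, 3 labelled nrde-3 set-25 and 3 labelled nrde-3, chosen by their labels. The other libraries, 3 per genotype, were lin-61(tm2649) with set-25(n5021), lin-61(tm2649) alone, 2 double mutants with met-2(n4256), and the wild type N2. Each genotype is a single strain. Worms were grown at 20 °C from synchronised larvae, and the embryos had about 1 to 300 cells and had not reached the bean stage. All values are of whole embryos, in which fewer cells of a type and less RNA per cell cannot be told apart. The titles number 3 replicates per genotype, while the growth protocol speaks of 2 independent ones. The spread between libraries behind the p-values may therefore be partly technical. In the tests per window that spread was estimated over all 21 libraries of 7 genotypes, not over the 6 compared alone.

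NRDE-3 is an Argonaute protein of the nuclear RNA interference pathway in somatic cells. It binds small interfering RNAs in the cytoplasm, enters the nucleus with them and recruits silencing factors to matching nascent transcripts. SET-25 is a histone methyltransferase that adds the trimethyl mark to lysine 9 of histone H3, a mark of silent chromatin at repeats, transposons and genes that are off. LIN-61 is a protein with MBT domains that binds methylated lysine 9. The series title names NRDE-3 and LIN-61 as parts of parallel routes that bring this methyltransferase to chromatin in somatic cells.

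The authors deposited read numbers for 200547 consecutive windows of 500 bp that cover the 6 nuclear chromosomes in build ce10. The files pair windows with no gene, exon or repeat names, so windows go by chromosome and starting position. Levels are in CPM, the number of reads relative to the TMM-scaled size of the library, and since all windows have 1 length, levels of different windows can be compared. The nrde-3 set-25 libraries a, b and c held 24194167, 26088676 and 22275571 reads, and the nrde-3 libraries a, b and c held 24400868, 24651036 and 24343945 reads. Over the 21 libraries depth reached 67553226 reads. At the depth of the 6 libraries, 3 reads over a group of 3 libraries correspond to 0.0382 CPM in nrde-3 set-25 and to 0.0391 CPM in nrde-3. Pearson's r of log2 CPM between libraries, across windows, was 0.982 to 0.988 in nrde-3 set-25 and 0.970 to 0.986 in nrde-3, and no pair of libraries was identical. All 6 libraries carry the title prefix 1121, whose meaning the labels do not give.

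The chromosome that the labels give for set-25 held the sharpest difference. Over the 1 kb from III 13288001 to 13289000, the 3 nrde-3 set-25 libraries held 0, 0 and 0 reads, against 537, 638 and 716 reads in the nrde-3 libraries. In CPM this was 24.7 ± 3.12 in nrde-3 (SD, n = 3), and the nrde-3 set-25 level was at least 644-fold lower, with 3 reads over the group as the floor. Of all 200547 windows, only the 2 of this stretch had 0 reads in nrde-3 set-25 and at least 5 CPM in each nrde-3 library, and 0 windows had the reverse pattern. The stretch held 0 reads in lin-61 set-25, 30.3 ± 2.97 CPM in lin-61 and 38.7 ± 5.31 CPM in N2 (SD, n = 3 each). It was likewise without reads (0) in lin-61 met-2 and held 1 read over all 3 libraries of nrde-3 met-2, genotypes whose labels name met-2 and not set-25. For the nrde-3 mutation, 0 windows had at most 3 reads in each of the 9 libraries labelled nrde-3 and at least 2 CPM in each other library. This count would miss a loss that does not fill a whole window. Library nrde-3 met-2 c held at least 5 reads in 77.4% of 32328 windows with 2 reads or fewer over N2 and lin-61. Whether the nrde-3 mutation removes a shorter stretch was therefore not settled.

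**Figure D1:**
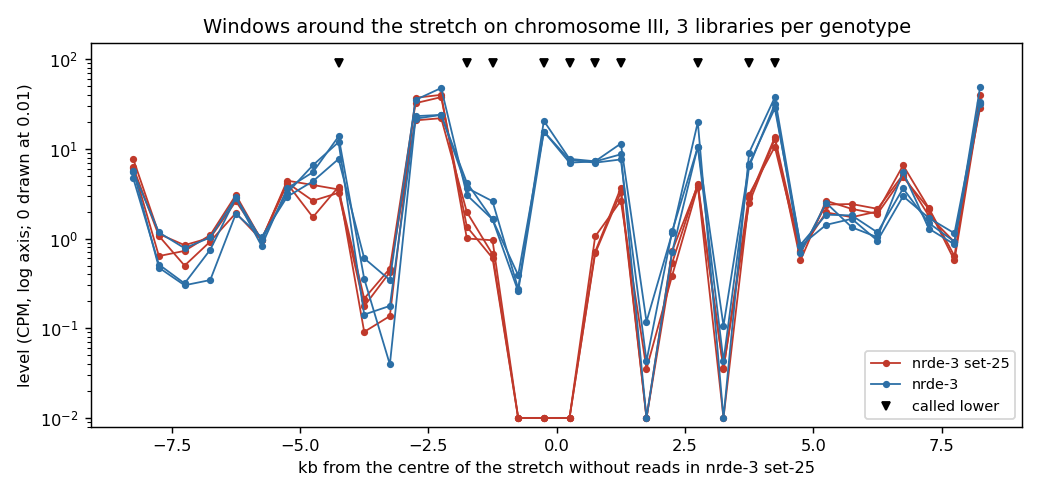
Level per 500 bp window in CPM on a log axis (0 drawn at 0.01) against the distance in kb from the centre of the stretch on chromosome III, for the 3 nrde-3 set-25 libraries and the 3 nrde-3 libraries. Triangles mark windows called lower in nrde-3 set-25. The nrde-3 set-25 lines reach 0 in the middle, and 10 of 29 tested windows within 8 kb of the stretch were called lower, on both sides of it.

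Windows on both sides of the stretch were lower as well. Of 29 tested windows within 8 kb, 10 were called lower, the 2 of the stretch included. Window III 13284001 held 3.23, 3.53 and 3.78 CPM in nrde-3 set-25, against 7.70, 11.9 and 13.7 CPM in nrde-3 (log2 fold change -1.66 ± 0.31 SE, adjusted p = 0.00508 by edgeR's quasi-likelihood test with Benjamini-Hochberg adjustment). Window III 13291001 held 3.797, 4.10 and 3.92 CPM in nrde-3 set-25, against 10.5, 10.6 and 19.9 CPM in nrde-3 (log2 fold change -1.79 ± 0.27 SE, adjusted p = 0.000944 by the same test). The groups did not overlap in either window, which was a condition for naming them. Windows III 13285501 and III 13286001, which lie between called ones, were not called (log2 fold change 0.17 and 0.06), so the calls did not form 1 unbroken block.

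Across the genome, nrde-3 set-25 embryos held more RNA than nrde-3 embryos in many windows that were nearly silent, and less in few. Of 97353 windows with enough reads to test, 2392 were higher in nrde-3 set-25 (2.46%) and 226 were lower (0.232%), at an adjusted p below 0.05 by edgeR's quasi-likelihood test with Benjamini-Hochberg adjustment. At an unadjusted p below 0.05 there were 11233 higher and 5703 lower windows. The higher windows had a median log2 fold change of 2.26, with quartiles of 1.77 and 3.04. Of them, 2343 were higher by at least 2-fold, 1514 by at least 4-fold and 285 by at least 16-fold. The lower windows had a median log2 fold change of -1.06, and 138 were lower by at least 2-fold and 12 by at least 4-fold. The median over all tested windows was -0.01. In 2387 of the 2392 higher windows all 3 nrde-3 set-25 libraries lay above all 3 nrde-3 libraries, an order that 14.5% of all tested windows had. In 225 of the 226 lower windows all 3 lay below, as in 9.76% of all tested windows.

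Summed over the 2392 higher windows, nrde-3 set-25 libraries a, b and c held 9552, 7974 and 8590 CPM, against 2528, 2859 and 2277 CPM in nrde-3 libraries a, b and c. N2 held 2628 ± 487 CPM in these windows (SD, n = 3), close to nrde-3. The N2 libraries carry the prefix 875 and those of both nrde-3 genotypes the prefix 1121, so genotype and prefix cannot be told apart wherever levels are set beside N2. The median higher window stood at 1.47 CPM in nrde-3 set-25, 0.293 CPM in nrde-3 and 0.192 CPM in N2, whereas the median over all tested windows was 1.44 CPM in nrde-3 set-25, 1.30 CPM in nrde-3 and 1.27 CPM in N2. In nrde-3, 77 of the higher windows held 0 reads over the 3 libraries and 340 held at most 3. The windows were chosen by this contrast, so their levels in nrde-3 set-25 and nrde-3 describe the calls and are no second test of them.

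The numbers of calls moved with single libraries. Without nrde-3 c, 481 windows were called higher and 20 lower, and without nrde-3 set-25 a, 663 were called higher and 29 lower. The counts were 989 and 324 without nrde-3 a, and 1423 and 122 without nrde-3 b. Leaving out nrde-3 set-25 b gave 1766 and 60, and leaving out nrde-3 set-25 c gave 1454 and 60. The filter also changed in these fits: it kept 112165 to 114524 windows to test, against 97353 in the main fit. Leaving out lin-61 set-25 b or c, libraries of neither genotype compared, gave 4036 and 4048 higher windows and 364 and 395 lower ones, in fits whose filter kept 114232 and 111562 windows to test. Library a of nrde-3 set-25 was the highest of its group in 1653 of the 2392 higher windows, against 37.6% of all tested windows. Library c of nrde-3 was the highest of its group in 178 of the 226 lower windows, against 32.0% of all tested windows. Their part in the calls beyond these counts was not tested.

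Fold changes were ranked among higher windows with an average log2 CPM of 1 or more over all 21 libraries. The largest were in windows that held almost no reads in nrde-3. Levels in other genotypes counted towards that average. Among them, lin-61 set-25 held 16.6 ± 16.9 CPM at II 8358501, 21.6 ± 21.6 CPM at V 12404001 and 28.7 ± 26.3 CPM at I 11489501 (SD, n = 3 each). Window II 8358501 held 3.41, 1.25 and 1.46 CPM in nrde-3 set-25, which is 164 reads, and 0 reads in nrde-3. It was at least 53.5-fold higher, and N2 held 0 reads there too. Window V 12404001 held 3.83, 1.996 and 3.28 CPM in nrde-3 set-25, against 0, 0 and 0.0395 CPM in nrde-3, a single read. The ratio was 232, with an exact binomial 95% interval (Clopper-Pearson) of 41.2 to 9194 that covers counting error only. Window I 11489501 held 7.67, 3.10 and 4.19 CPM in nrde-3 set-25, against 0.0430, 0.0355 and 0.0395 CPM in nrde-3. Each nrde-3 library there held 1 read, and the ratio was 129 (44.0 to 630). In all of these the lowest nrde-3 set-25 library was far above the highest nrde-3 library, though non-overlapping groups were a condition of the ranking.

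Window I 4149001 held 10.2, 5.70 and 7.92 CPM in nrde-3 set-25, against 0.0430, 0.213 and 0.197 CPM in nrde-3. With 12 reads in nrde-3 its fold change could be fitted (log2 fold change 5.64 ± 0.75 SE, edgeR adjusted p = 0.00026). Window IV 4516501 held 7.07, 3.78 and 3.14 CPM in nrde-3 set-25, against 0.0861, 0.0710 and 0.0395 CPM in nrde-3 (log2 fold change 6.09 ± 0.74 SE, edgeR adjusted p = 9.23e-05). The other 5 of the 10 largest fold changes were on IV, V and X, with 1 or 2 reads in nrde-3 and ratios between 62.1 and 131. Of these 10 windows, 3 were on IV, 3 on V, 2 on I, 1 on II and 1 on X. In 9 of the 10, N2 held less than 0.1 CPM. The exception was V 8828001, where N2 held 0.132 ± 0.0701 CPM.

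**Figure D2:**
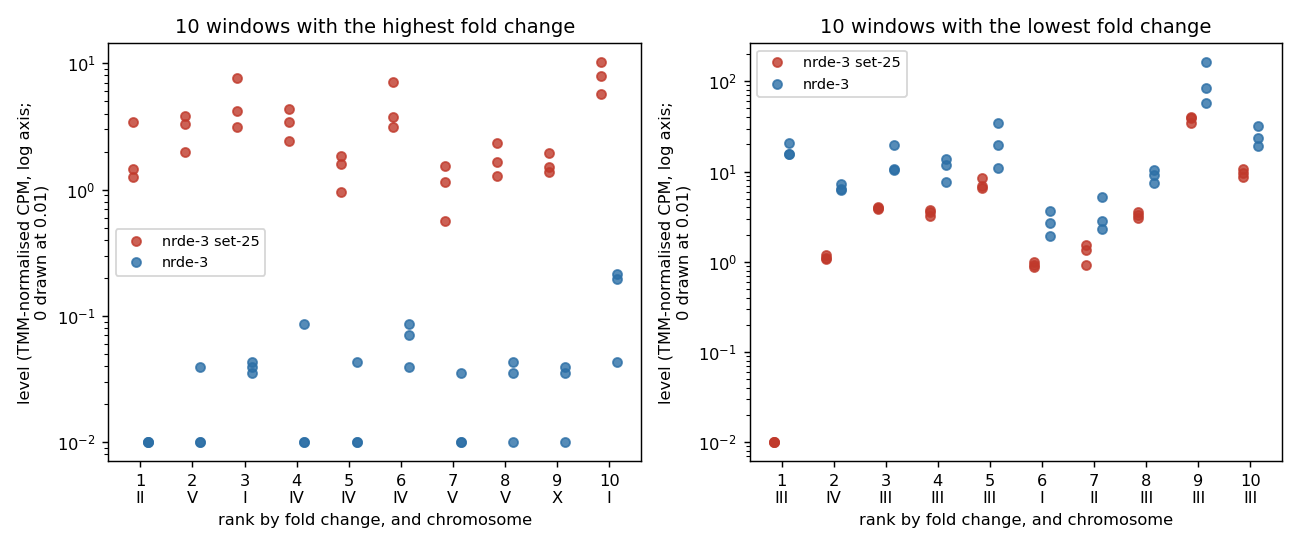
Level of single windows in CPM on a log axis (0 drawn at 0.01), 1 point per library, for the 10 highest fold changes among higher windows (left) and the 10 lowest among lower windows (right), ordered by fold change with the chromosome under each rank. Points of nrde-3 set-25 stand left of those of nrde-3. All 20 windows have an average log2 CPM of 1 or more over all 21 libraries. They were chosen so that the libraries of the 2 genotypes do not overlap.

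Windows that were abundant in both genotypes changed by less. Among higher windows with non-overlapping libraries the highest level was at II 11760001, with 312, 458 and 483 CPM in nrde-3 set-25, against 157, 140 and 146 CPM in nrde-3 (log2 fold change 1.5 ± 0.23 SE, edgeR adjusted p = 0.000997). N2 held 254 ± 51.4 CPM there, between the 2 genotypes. The neighbouring region at II 11758001 held 118, 174 and 171 CPM in nrde-3 set-25, against 56.2, 51.0 and 52.9 CPM in nrde-3 (log2 fold change 1.53 ± 0.22 SE, edgeR adjusted p = 0.000466). On chromosome V, window V 9090001 held 57.5, 89.7 and 94.4 CPM in nrde-3 set-25, against 21.2, 20.8 and 17.9 CPM in nrde-3 (log2 fold change 2.01 ± 0.30 SE, edgeR adjusted p = 0.000847), with 65.5 ± 12.7 CPM in N2. Window V 9088001, 2 kb away, held 50.6, 90.6 and 99.4 CPM in nrde-3 set-25, against 33.1, 22.5 and 17.2 CPM in nrde-3 (edgeR adjusted p = 0.0185), a call that was lost without nrde-3 b, nrde-3 c or nrde-3 set-25 c. In all 4 windows nrde-3 set-25 a was the lowest library of its genotype, the reverse of its place in most higher windows.

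Most higher windows were silent or weakly transcribed in N2. Of the higher windows, 84.3% had under 1 CPM in N2, as did 46.5% of all tested windows. The percentage of tested windows called higher was 10.3% below 0.05 CPM in N2, 5.00% from 0.1 to 0.2 CPM, 2.32% from 0.5 to 1 CPM, 1.16% from 2 to 5 CPM and 0.127% from 10 to 50 CPM. Windows of low N2 level entered the test only where other genotypes held enough reads. Below 0.05 CPM in N2, 4300 of 79430 windows of the table were tested, and from 0.1 to 0.2 CPM 8062 of 17874. The 46.5% and the percentages of tested windows at low N2 levels therefore have a selected base. As a percentage of all windows of the table, higher calls were 0.556% below 0.05 CPM in N2, 2.65% from 0.2 to 0.5 CPM and 1.16% from 2 to 5 CPM. In 327 higher windows the N2 mean was at least 2 times the nrde-3 mean, and in 38 (1.59%) it reached the nrde-3 set-25 mean.

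**Figure D3:**
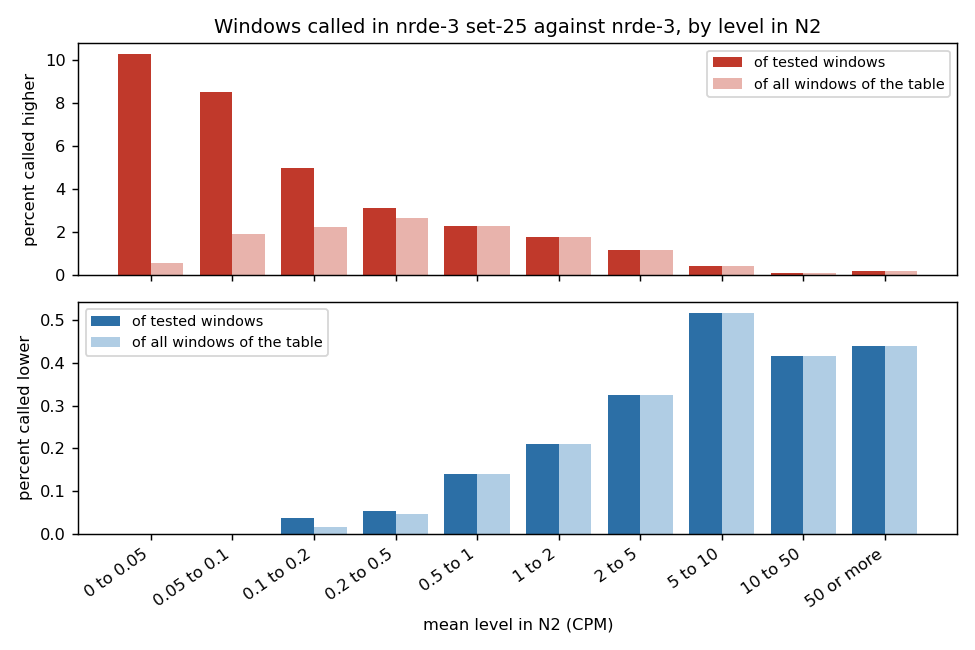
Percent of windows called higher (top) and lower (bottom) in nrde-3 set-25 against nrde-3, by the mean level in N2 in CPM. Dark bars are shares of tested windows and light bars shares of all windows in the table. Higher calls make up 10.3% of tested windows below 0.05 CPM in N2 and 0.127% from 10 to 50 CPM, and lower calls reach 0.518% from 5 to 10 CPM.

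The higher windows clustered into stretches. Joined across gaps of at most 1 window they formed 1402 regions, of which 938 were single windows, 220 held at least 3 called windows and 72 held at least 5, and 60.8% of the higher windows lay in regions of at least 2. Joined with no gap, 39 regions held at least 5 called windows, and with gaps of at most 3 windows, 100 did. The 226 lower windows formed 179 regions, 152 of them single windows. In bins of 100 kb, 378 of 1005 bins held 0 higher windows and 44 held at least 10. The bin V 6100001 to 6200000 held the most, 41 of 174 tested windows (23.6%). The bin V 17500001 to 17600000 had the next highest number, 27 of 56 (48.2%), and the adjacent V 17600001 to 17700000 held 19 of 50 (38.0%). Bins on X (11400001 to 11500000, 24 of 120), IV (7700001 to 7800000, 22 of 135) and II (1900001 to 2000000, 19 of 96) followed.

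The region with the most called windows lay at V 17641501 to 17650500, where 17 of 18 windows were higher. Its summed level was 15.96, 19.96 and 18.5 CPM in nrde-3 set-25, against 3.18, 3.02 and 2.61 CPM in nrde-3, a ratio of means of 6.18. N2 held 21.6 ± 1.62 CPM there, above nrde-3 and close to nrde-3 set-25. The lin-61 set-25 and lin-61 libraries held 73.5 ± 4.53 and 85.5 ± 5.17 CPM (SD, n = 3 each). Its window of lowest p, V 17642501, held 2.39, 2.89 and 2.37 CPM in nrde-3 set-25, against 0.258, 0.284 and 0.276 CPM in nrde-3 (log2 fold change 3.20 ± 0.25 SE, edgeR adjusted p = 9.41e-08). At II 1937001 to 1944000, where 11 of 14 windows were higher, nrde-3 was again below both nrde-3 set-25 and N2, and N2 lay between them. It held 17.8, 20.8 and 15.3 CPM in nrde-3 set-25, against 2.84, 6.35 and 7.30 CPM in nrde-3, and 12.2 ± 0.729 CPM in N2.

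The region second in number of calls, IV 7748001 to 7756000, was nearly silent in N2 and in nrde-3. Here 14 of 15 tested windows were higher, and the summed level was 37.1, 17.2 and 20.7 CPM in nrde-3 set-25, against 0.775, 1.03 and 1.14 CPM in nrde-3, a ratio of 25.5. N2 held 0.279 ± 0.0466 CPM, lin-61 2.85 ± 1.10 CPM, and the lin-61 set-25 libraries 79.5, 28.4 and 240.3 CPM. Its window IV 7753501 held 13.2, 5.84 and 7.01 CPM in nrde-3 set-25, against 0.215, 0.355 and 0.316 CPM in nrde-3 (log2 fold change 4.85 ± 0.66 SE, edgeR adjusted p = 0.000277). Regions at I 8445501 to 8449500, V 8113001 to 8117500 and I 7260001 to 7265500 were alike, with all 8, 9 and 11 windows higher and ratios of 25.9, 19.2 and 15.1. In each of them N2 held under 1 CPM in sum and nrde-3 set-25 at least 6.88 CPM in every library.

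At II 11242001 to 11247500 all 11 windows were higher, with 16.3, 10.7 and 10.8 CPM in nrde-3 set-25, against 1.29, 1.31 and 1.30 CPM in nrde-3, and 1.46 ± 0.175 CPM in N2. At V 17520001 to 17527000 all 12 tested windows were higher, with 8.26, 7.55 and 6.24 CPM in nrde-3 set-25, against 0.215, 0.497 and 0.553 CPM in nrde-3. In this region lin-61 set-25 and lin-61 held 9.78 ± 3.37 and 7.59 ± 0.736 CPM, and N2 0.946 ± 0.127 CPM. At V 7075501 to 7081000, a region of higher level, all 11 windows were higher, with 180, 124 and 134 CPM in nrde-3 set-25, against 35.03, 51.4 and 41.8 CPM in nrde-3, and 24.9 ± 10.2 CPM in N2. The remaining 3 of the 12 regions with the most calls, at X 11480001 to 11485500, X 8507501 to 8513000 and IV 7570001 to 7574000, had ratios of 5.68, 4.39 and 3.84, and in each of them all nrde-3 set-25 libraries lay above all nrde-3 libraries.

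**Figure D4:**
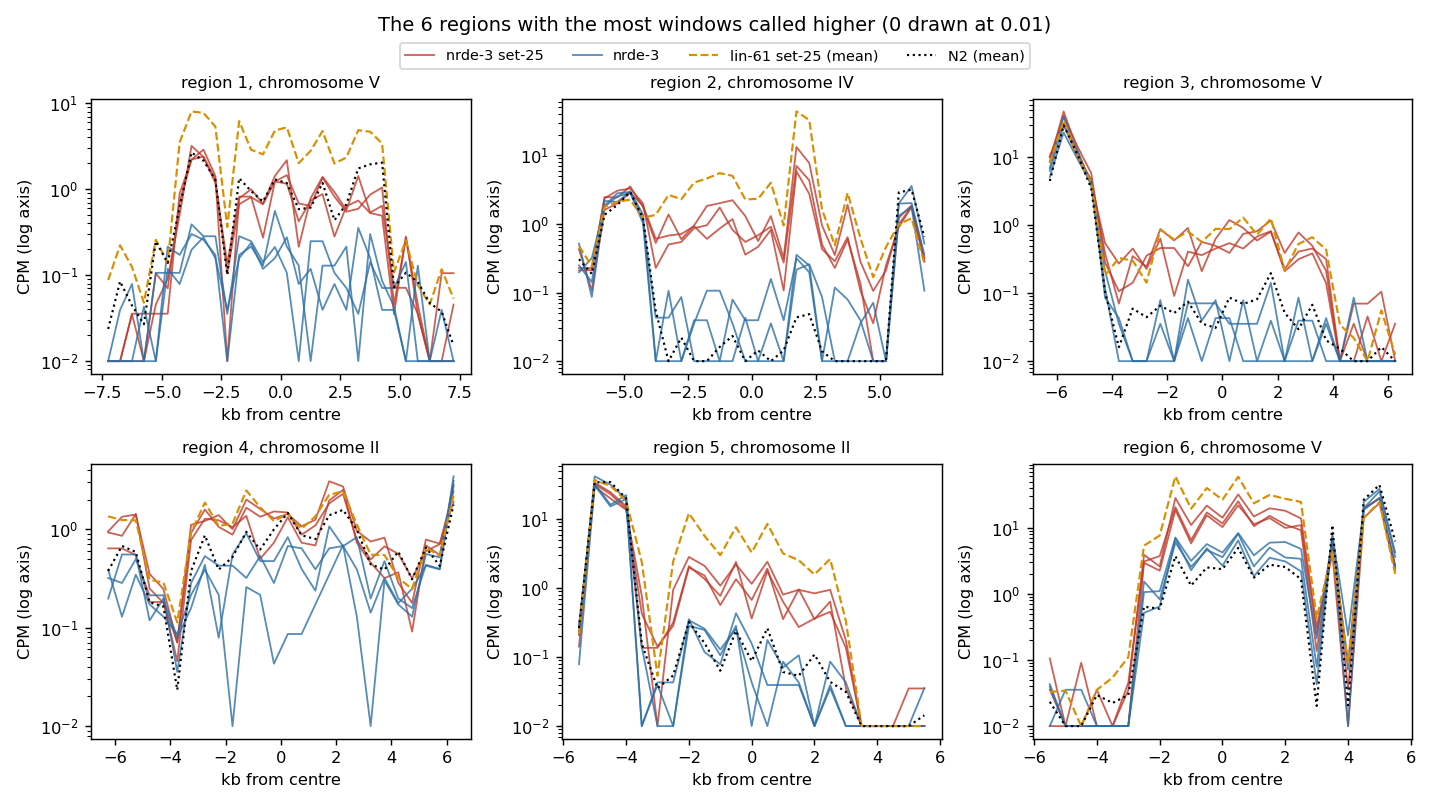
Level per 500 bp window in CPM on a log axis (0 drawn at 0.01) against the distance in kb from the region's centre, for the 6 regions with the most windows called higher. Lines are the 3 nrde-3 set-25 libraries, the 3 nrde-3 libraries, the lin-61 set-25 mean and the N2 mean. In region 1 the N2 line runs near the nrde-3 set-25 lines, and in region 4 its summed level lies between nrde-3 set-25 and nrde-3. In regions 2, 3, 5 and 6 the N2 line runs under the nrde-3 set-25 lines within the region. In the flanks it reaches or exceeds them in places.

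Calls were unevenly spread over the chromosomes. Chromosome V had 624 higher windows (4.03% of its tested windows) and X had 512 (3.32%), while I had 248 (1.37%) and III 220 (1.33%). II and IV lay between, with 430 (2.70%) and 358 (2.26%). For lower windows the order was otherwise: X held 5 (0.0324%), V 26 (0.168%), and III and I the largest shares, with 59 (0.356%) and 61 (0.336%). With each chromosome divided into left, middle and right parts of equal length, the middle parts had 2.80% higher calls and the outer parts 2.26%. The middle of V had the largest share, 4.38%, and the middle of X had 4.01% higher and 0 lower windows. These shares are descriptions, since neighbouring windows are not independent. The summed level of all tested windows was also compared part by part. Of 18 parts only the left part of X had the smallest p that 3 against 3 libraries allow, 0.1, by an exact two-sided permutation test, with 27265 ± 629 CPM in nrde-3 set-25, against 25584 ± 805 CPM in nrde-3 (SD, n = 3 each). Its p adjusted over the 18 parts was 0.72.

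**Figure D5:**
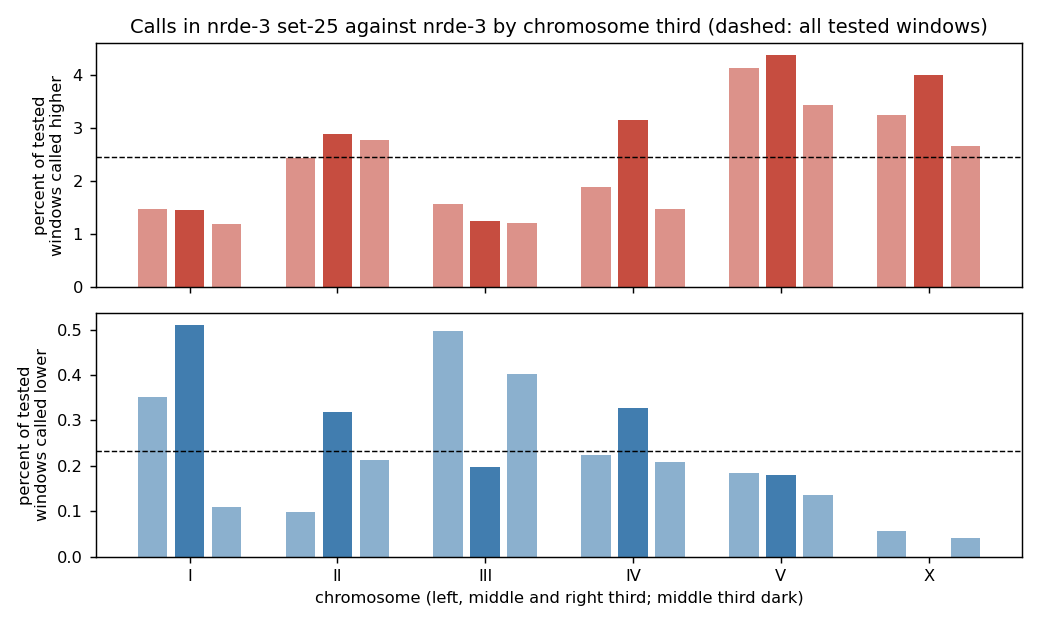
Percent of tested windows called higher (top) and lower (bottom) in nrde-3 set-25 against nrde-3, for the left, middle (dark) and right part of each chromosome. The dashed line is the share over all tested windows, 2.46% higher and 0.232% lower. All 3 parts of V and X lie above the line for higher calls, and all 3 parts of X lie under the line for lower calls.

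The addition of the set-25 mutation to lin-61 was measured in libraries of neither genotype compared above. Those libraries were part of the same fit, so they helped to set which windows were tested and the spread behind the calls. In lin-61 set-25 against lin-61, 13084 of the tested windows were higher (13.4%) and 12970 lower (13.3%). Of the 2392 windows higher in nrde-3 set-25 against nrde-3, 1311 (54.8%) were among those 13084, which is 10.02% of that list, and 94 were lower. Among windows with under 1 CPM in N2 the shares were 60.5% of 2017 higher windows and 19.8% of 45305 tested windows. Library c of lin-61 set-25 stood apart: the 3 libraries held 13279, 7703 and 25589 CPM summed over the 2392 windows, against 8042, 6500 and 8615 CPM in lin-61 libraries a, b and c. Without it, 1089 of 4048 higher windows (26.9%) were also higher in lin-61 set-25 against lin-61, as were 6.10% of all windows tested in that fit. The lin-61 libraries carry the prefix 875 and the lin-61 set-25 libraries the prefix 1121, so genotype and prefix cannot be told apart in that contrast.

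Many of the windows higher in nrde-3 set-25 were also higher in lin-61 alone. In lin-61 against N2, both of prefix 875, 10207 tested windows were higher (10.5%) and 1999 lower (2.05%). Of the 2392 windows, 1771 (74.0%) were higher and 0 lower in lin-61 against N2, and the 1771 make up 17.4% of that list. Among windows with under 1 CPM in N2 the shares were 74.3% of the higher windows and 16.4% of all tested ones. Both lin-61 contrasts called 885 of the 2392 windows higher, and 195 were higher in neither. The median higher window stood at 2.89 CPM in lin-61 set-25 and 1.06 CPM in lin-61, and in 2002 of the 2392 windows the lin-61 set-25 mean exceeded the nrde-3 set-25 mean.

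The effect of the set-25 mutation in nrde-3 was tested against its effect in lin-61 as an interaction over all tested windows. In all, 5908 windows (6.07%) had a more positive effect in nrde-3 and 2723 (2.80%) a more negative one. Among the 2392 higher windows, 422 (17.6%) had a more positive effect in nrde-3 and 4 a more negative one. These include 16 windows of the region at V 17641501, 8 of that at V 17520001 and 6 of that at II 1937001, where lin-61 alone was already at or above the nrde-3 set-25 level, and 0 of the regions at IV 7748001, II 11242001 and V 7075501. Of the 226 lower windows, 65 (28.8%) had a more negative effect in nrde-3 and 5 a more positive one. The higher and lower windows were chosen by the nrde-3 contrast, which is 1 side of this interaction, and prefix differs within the other side, so these counts are a description.

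The lower windows were mostly transcribed in N2. A window can be called lower only where nrde-3 held enough reads to fall, which limits lower calls in nearly silent windows. Of the 226, 78.3% had at least 2 CPM in N2, as did 43.7% of all tested windows. Their median level was 3.32 CPM in nrde-3 set-25, 6.93 CPM in nrde-3 and 6.82 CPM in N2. Summed over them, nrde-3 set-25 libraries a, b and c held 1360, 1472 and 1504 CPM, against 2417, 2627 and 3681 CPM in nrde-3. In 117 of the 226 the N2 mean was at or above the nrde-3 mean, in 108 it lay between the 2 genotypes, and in 1 it was at or below the nrde-3 set-25 mean. In lin-61 set-25 against lin-61, 68 (30.1%) were lower too, against 13.3% of all tested windows, and those 68 are 0.524% of that list. In lin-61 against N2, 61 (27.0%) were lower, against 2.05% of all tested windows. The shares of all tested windows were not limited by N2 level, so they include many windows too weak to be called lower.

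Apart from the surroundings of the stretch on III, window IV 8609001 had the lowest fold change among lower windows with an average log2 CPM of 1 or more. It held 1.09, 1.07 and 1.18 CPM in nrde-3 set-25, against 7.32, 6.35 and 6.32 CPM in nrde-3 (log2 fold change -2.58 ± 0.29 SE, edgeR adjusted p = 4.77e-05), and 5.66 ± 0.985 CPM in N2. The 1 kb region it belongs to, IV 8609001 to 8610000, held 2.85, 3.63 and 3.55 CPM in nrde-3 set-25, against 20.9, 15.1 and 13.3 CPM in nrde-3. The genotypes did not overlap in this region. Of the 10 lowest fold changes 7 were on III. These include a window of the stretch and windows on both sides within 8 kb of it, so that locus was counted more than once. Chromosome III held 59 of the 226 lower windows and 16579 of the 97353 tested windows. Window III 2563001 held 3.34, 3.53 and 3.05 CPM in nrde-3 set-25, against 10.3, 7.52 and 9.08 CPM in nrde-3 (log2 fold change -1.44 ± 0.29 SE, edgeR adjusted p = 0.00997). That call is among those of 11 of the 16 named lower windows that were lost under at least 1 other setting.

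The longer lower regions were moderately to strongly expressed. At III 4489501 to 4491500 the summed level was 101, 121 and 123 CPM in nrde-3 set-25, against 182, 254 and 408 CPM in nrde-3. At IV 11373001 to 11375000 it was 91.8, 109 and 97.98 CPM in nrde-3 set-25, against 138, 198 and 297 CPM in nrde-3. In both, the wide spread came from nrde-3, with library c the highest, while the nrde-3 set-25 libraries were close to each other. The calls of their named windows, III 4490501 and IV 11374501, were lost without nrde-3 c (edgeR adjusted p = 0.211 and 0.159). They were also lost without nrde-3 set-25 a (edgeR adjusted p = 0.0963 and 0.0907). At III 7102001 to 7104000 the values were 44.6, 51.6 and 52.2 CPM in nrde-3 set-25, against 107, 89.9 and 141 CPM in nrde-3, and all 4 windows were lower. Window III 7103001 of that region had a log2 fold change of -1.20 ± 0.21 SE (edgeR adjusted p = 0.0035). The call of its window III 7102001 was lost without nrde-3 c (edgeR adjusted p = 0.0583). The most abundant lower window with non-overlapping libraries, I 5619501, held 72.2, 82.1 and 97.3 CPM in nrde-3 set-25, against 133, 124 and 201 CPM in nrde-3 (log2 fold change -0.86 ± 0.23 SE, edgeR adjusted p = 0.0406). That call was lost under 6 of the alternatives, among them leaving out nrde-3 c (log2 fold change -0.62, edgeR adjusted p = 0.308), and its adjusted p ranged over the alternatives between 0.00919 with DESeq2 and 0.308.

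Nearly silent windows were also counted without a test per window. A set of 32328 windows held 2 reads or fewer when the 6 libraries of N2 and lin-61 were added up. There, the nrde-3 set-25 libraries a, b and c had at least 1 read in 29.3%, 17.03% and 12.4% of windows, against 9.92%, 12.6% and 9.47% in the nrde-3 libraries. The groups overlapped, and the means of 19.6 ± 8.76% and 10.7 ± 1.72% (SD, n = 3 each) gave p = 0.2 by an exact two-sided permutation test. With at least 5 reads required, the shares were 0.551%, 0.158% and 0.136% in nrde-3 set-25, against 0.0557%, 0.0433% and 0.0371% in nrde-3. These did not overlap, which gives the smallest p that 3 against 3 libraries allow, 0.1 by the exact permutation test. Library a of nrde-3 set-25 was the highest in both counts. Of 252 such windows that entered the test, 5 were called higher and 0 lower, beside 2.46% called higher among all tested windows. With 2 reads or fewer over N2 and lin-61, these windows entered the test through reads of other genotypes. The nrde-3 met-2 libraries a, b and c had at least 1 read in 81.7%, 75.9% and 97.8% of the 32328 windows. In the lin-61 met-2 libraries a, b and c the shares were 10.99%, 60.4% and 52.97%. Whether a general background of reads adds to the nrde-3 set-25 shares was not tested.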

How the data were processed

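Total RNA of early embryos was depleted of ribosomal RNA (from 5 µg) and made into libraries with an Illumina TruSeq kit, per the labels' protocols. The authors deposited raw read counts per 500 bp window, without strand. The build is ce10, per the submitters' processing notes. The aligner, the counting tool and the treatment of reads with several matches are not given in the sources used here. Such reads can move counts between near-identical repeats, and 1 window can hold reads of several transcripts or of both strands. Columns were matched to genotypes by name. Their letters a, b and c could not be linked to the titles' replicate numbers. A further 6 columns of per-sample values matched no sample and were not used. Gene names and sequences are not reported, since the annotation at hand is for another build.

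For the tests, edgeR 4.0.16 in R 4.3.3 was run on the counts of all 21 libraries, scaled by TMM and filtered with filterByExpr (minimum count 10), through glmQLFit and glmQLFTest with 1 coefficient per genotype, which leaves 14 residual degrees of freedom and tests 97353 windows. Calls needed an adjusted p (Benjamini-Hochberg, over the windows of a comparison) below 0.05. The design was written for genes and was applied to windows. CPM uses the TMM-scaled library sizes. The SE beside a log2 fold change is the absolute fold change divided by the square root of the test's F statistic. It was derived from the test and is not an output of the fit. Called windows of 1 direction were joined across gaps of at most 1 window. Against 1 to 3 reads in a group, the ratio of pooled levels is given with an exact binomial 95% interval. Against 0 reads, a bound from a floor of 3 reads over the group is given. Both cover counting error only.

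Named windows were taken among called windows whose 2 groups did not overlap, 1 per region in each list. The lists were the 10 highest and 10 lowest fold changes (average log2 CPM 1 or more over all 21 libraries), the 5 higher and 5 lower windows of highest level, and the lowest-p window of each of the 6 longest higher and 3 longest lower regions. Windows III 13285501 and III 13286001 were named after their values were seen. The comparison, its windows and the alternatives were chosen with earlier results of these data known. Alternatives were DESeq2 1.42.0, RLE scaling, a fit without the filter, fits with fewer libraries, and subtraction of the mean reads of nearly silent windows. The pipeline was tested on simulated data. Descriptions and figures used matplotlib 3.10.9, scipy 1.17.1, pandas 2.3.3 and numpy 2.4.6 under Python 3.11.15.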

Additional observations from a re-analysis of the deposited data

Results flagged for a closer look

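The effect of the set-25 mutation differed between the nrde-3 and the lin-61 background in the windows below. The criterion was the interaction term of the edgeR quasi-likelihood fit at a Benjamini-Hochberg adjusted p below 0.05. Values below are the log2 effect in nrde-3 minus that in lin-61. The higher windows of the nrde-3 set-25 comparison had an effect more positive in nrde-3 in 422 and more negative in 4 cases. Among the lower windows it was more negative in nrde-3 in 65 and more positive in 5. In lin-61 the title prefix differs between the mutant pair, so genotype and prefix cannot be told apart. The counts moved with single libraries: the 422 became 111 without nrde-3 c and 1127 without lin-61 set-25 c. The differences given below for single windows are from the fit of all libraries.

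Of the named higher windows, 5 had a difference. It was 3.42 at V 17642501, where nrde-3 set-25 held 2.55 ± 0.293 CPM against 0.273 ± 0.0132 CPM in nrde-3, and lin-61 set-25 held 7.72 ± 1.14 CPM against 8.98 ± 0.444 CPM in lin-61 (SD, n = 3 each). It was 1.76 at II 1942501, where nrde-3 set-25 held 2.5 ± 0.211 CPM against 0.678 ± 0.00935 CPM in nrde-3, and lin-61 set-25 held 2.42 ± 0.367 CPM against 2.23 ± 0.307 CPM in lin-61. It was 2.07 at II 14405501, where nrde-3 set-25 held 79.8 ± 16.8 CPM against 46.4 ± 3.61 CPM in nrde-3, and lin-61 set-25 held 55.4 ± 11.3 CPM against 135 ± 7.92 CPM in lin-61. The call of II 14405501 in the nrde-3 comparison (log2 fold change 0.78, edgeR adjusted p = 0.0274) was lost under 7 alternatives. At V 8828001 the fitted difference was 8.99 and at V 17524501 it was 5.66. Both rest on 1 read in nrde-3, so they depend on the prior count and are no bound. At V 8828001 lin-61 set-25 held 1.26 ± 0.313 CPM and lin-61 held 10.02 ± 0.876 CPM, the opposite direction to nrde-3 set-25 (1.08 ± 0.495 CPM) against nrde-3 (0.0118 ± 0.0205 CPM).

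Of the named lower windows, 3 had a difference. It was -1.67 at IV 8609001, where nrde-3 set-25 held 1.11 ± 0.0611 CPM against 6.66 ± 0.568 CPM in nrde-3, and lin-61 set-25 held 1.65 ± 0.281 CPM against 3.09 ± 0.715 CPM in lin-61. It was -1.76 at III 2563001, with 7.36 ± 2.01 CPM in lin-61 set-25 and 5.86 ± 0.593 CPM in lin-61. It was -1.02 at III 7103001, with 14.1 ± 3.05 CPM in lin-61 set-25 and 15.97 ± 1.95 CPM in lin-61.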

How the results depend on the processing

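Against 2392 higher calls, an unfiltered fit gave 3667 and one of prefix 1121 alone gave 1496. Lower calls numbered 630 with DESeq2, 507 without the nrde-3 met-2 libraries and 62 with prefix 1121 only, against 226. Leaving out 1 of the 6 libraries compared gave 481 to 1766 higher and 20 to 324 lower calls. Leaving out 1 library of lin-61 or lin-61 set-25 gave 1973 to 4048 higher and 144 to 395 lower calls. Of the 481 and 20 calls without nrde-3 c, 476 and 20 were among the main ones. Other settings kept the counts within 1.5 times: RLE scaling gave 2123 and 227, background subtraction 1713 and 171, and the 6 libraries alone 3529 and 291. Of the higher windows, 422 had a more positive effect of the set-25 mutation in nrde-3 than in lin-61. Leaving out 1 library gave 111 to 1127. For a more negative effect among lower windows the number was 65, against 249 with DESeq2, 37 with no filter and 6 to 108 with 1 library left out. The share of higher windows also higher in lin-61 set-25 against lin-61 was 26.9 to 65.3% with 1 library left out. That range and the counts without a lin-61 or lin-61 set-25 library were chosen after seeing the data. The causes were not tested. Of 37 named windows, 24 kept the call under every alternative run for them, which left out no lin-61 or lin-61 set-25 library singly (19 of 21 higher and 5 of 16 lower), and 0 changed sign. Joining with no gap gave 1641 higher and 192 lower regions, and gaps of at most 3 windows gave 1209 and 169. Under another division of the chromosomes the middle parts exceeded the outer by 0.603 percentage points in higher and 0.0789 in lower calls, against 0.546 and 0.0522. No paired analysis was possible because the columns carry letters that could not be tied to the replicate numbers. Depth limits windows with few reads, where 0 reads in 3 libraries allow up to 3.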
